A study of Mus musculus with 40 samples.

Results

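The edits described here were small local deletions in the lineage-recording array of a DARLIN mouse, each removing bases around 1 Cas9 target site without adding any. They were chosen by their listed kind, start and end: an event entered when it was a deletion with no inserted bases that touched the cut window of exactly 1 of the 10 target sites. Of 42668 events listed in the library, 3615 met this rule (8.47%, exact binomial 95% interval 8.21 to 8.74%). They amounted to 568 distinct deletions by start and end, and they made up 26.1% of all deletions without added bases.

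The series holds 40 liver samples from 5 animals, marked E10 (14 samples), E12 (10 samples) or E15.5 (16 samples), each from a named lobe. Files of 1 library were analysed, from animal YK184 (mark E15.5, right inferior lobe), so there were no replicates and no comparison of stages, lobes or animals. The labels give neither strain and genotype details nor what the stage mark stands for. Each distinct edited array is called an allele, and the library listed 12767 alleles with 32342 unique molecular identifiers (UMIs), which tag array transcripts at reverse transcription and so count RNA molecules, not cells. The array amplified was the one at Col1a1, the gene of a type I collagen chain, which lies on chromosome 11 between bases 94936224 and 94953042 (GRCm38.p6, the assembly named mm10). The labels do not say where in that locus the array sits. Intervals below treat listed events or alleles as independent draws within this library and cover counting error only.

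Cas9 cuts both DNA strands a few bases before the short motif that follows each target. Cells rejoin the ends mainly by non-homologous end joining, which can trim or add a few bases, or by microhomology-mediated joining, which pairs short repeats on either side and loses the stretch between them. The Cas9 of DARLIN mice carries a terminal transferase, which adds untemplated bases to open ends, so a deletion without added bases is 1 of several possible outcomes of a cut. A small local deletion leaves the rest of the array in place, so the other sites can still record further edits.

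Positions are counted from 1 at the start of the array, and left of a cut means the lower numbers. The window of the first site covers bases 19 to 25, its cut lies after base 22, and the other sites follow at steps of 27 bases. The array sequence is not among the sources used here, but the 291 substitutions in the list state the original base at 40 positions. They give the partial windows shown here because they decide where some deletions can be placed. Capitals mark the bases directly left and right of the cut, and n stands for a base that no substitution states.

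Site 1: ncnACgn

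Site 2: natACgn

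Site 3: nnnACnn

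Site 4: ncnNCtn

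Site 5: nncGCtn

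Site 6: ncnACtn

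Site 7: nnnGCnn

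Site 8: nncGCgn

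Site 9: gacGAtn

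Site 10: cagACna

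Small local deletions were most numerous at the ends of the array. Site 1 carried 902 (24.95% of the total) and site 10 carried 886 (24.5%). Site 9 had 488, site 2 had 294 and site 8 had 244. The inner sites had 204 at site 7, 186 at site 4, 157 at site 3, 130 at site 5 and 124 at site 6. These counts depend on how often a site was still present, because deletions joining several sites removed the middle of most arrays. Sites 1 and 10 lay outside such joining deletions in 6015 and 7076 alleles, against 737 alleles at site 5.

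Relative to the alleles that still had the site outside a join, the order differed. Site 7 had the highest share of alleles with a small local deletion, 22.9% of 890 (95% interval 20.2 to 25.8%). Site 4 followed with 19.7% (17.2 to 22.3%), site 8 with 18.9% (16.8 to 21.2%), site 5 with 17.6% (14.95 to 20.6%), site 3 with 16.8% (14.5 to 19.4%) and site 9 with 16.4% (15.1 to 17.8%). The lower end held site 1 at 14.996% (14.1 to 15.9%), site 6 at 14.0% (11.8 to 16.5%), site 10 at 12.5% (11.8 to 13.3%) and site 2 at 10.6% (9.52 to 11.9%). The interval of site 7 overlapped those of sites 4, 5 and 8, and the intervals of sites 2 and 10 overlapped by a narrow margin. The intervals of sites 2 and 7 did not overlap.

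Most of the deletions were short. The median length was 4 bases (quartiles 2 and 10), and 48.1% of deletions removed 3 bases or fewer (46.4 to 49.7%). Deletions of 3 bases were the commonest class with 731 events, followed by 592 of 2 bases and 415 of 1 base (11.5%). At the other end, 294 removed more than 20 bases (8.13%), and the longest removed 46. The rule itself allows at most 47 bases, since a longer deletion would reach a second window.

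Counted over events, length differed between sites. Sites 7 and 8 had medians of 2 bases, with 68.1% (61.3 to 74.5%) and 63.5% (57.1 to 69.6%) of their deletions at 3 bases or fewer. Sites 1, 3 and 10 had medians of 3 bases. At the other sites the median was 5 bases at site 2, 8 bases at sites 5, 6 and 9 and 10 bases at site 4. Deletions over 20 bases made up 26.9% at site 5 (19.5 to 35.4%) and 23.6% at site 9 (19.9 to 27.6%), but 0.226% at site 10 (0.0273 to 0.813%). Lengths at site 10 are bounded more tightly, because the highest listed position was base 274. At most 9 bases were thus listed as lost right of its cut, against up to 23 over all sites. With each distinct deletion counted once, the medians were 9.5 bases at site 7 and 10.5 at site 8, within a range from 7 bases at site 10 to 12 at sites 1 and 6. The order of the sites thus differs between counting events and counting distinct deletions. In alleles with 5 or more UMIs the median was 6.5 bases at site 7 and 15 bases at site 6, but these medians rest on few deletions each.

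Several of the longer lengths came mostly from 1 or 2 sites. Of 170 deletions of 12 bases, 130 were at site 1. Lengths of 10 bases numbered 153, of which 68 were at site 1 and 50 at site 4. A length of 22 bases occurred 114 times, 74 of them at site 9, and a length of 24 bases occurred 45 times, 37 of them at site 1. Site 6 held 15 of the 44 deletions of 16 bases, and site 5 held 14 of the 26 of 23 bases.

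As listed, bases were lost more often to the right of the cut, the side of the motif that follows the target. Deletions lying wholly right of the cut numbered 1779 (49.2%, 47.6 to 50.9%), those removing bases on both sides 1266 (35.0%, 33.5 to 36.6%) and those wholly left 570 (15.8%, 14.6 to 16.997%). One or both of the bases beside the cut were removed in 92.8%. The median loss was 1 base on the left and 3 bases on the right. Deletions across the cut were the longest kind, with a median of 10 bases, against 3 bases for those wholly right and 2 bases for those wholly left.

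The side depends partly on where the list places a deletion among repeated bases. For 602 of the 3615 deletions (16.7%), in 10 distinct forms, the stated bases show that another placement leaves the same array. In all 10 the other placement lay to the left, and 0 events were listed there, so the list gives the rightmost of the placements that the stated bases show. At site 8, the window nncGCgn reads the same after loss of its final CG as after loss of the CG before it. All 137 deletions of this kind were listed at bases 212 to 213. With the 602 moved to their leftmost placement, an alternative added after the data were seen, the wholly right share was 38.9%, the share across the cut 38.1% and the wholly left share 22.96%. Site 8 changed most, with 68.9% wholly left after the move and 12.7% as listed. For 2705 deletions (74.8%) the stated bases do not decide, and for 308 (8.52%) only the listed placement is possible. Among these 308, which had 1 to 3 bases and a median of 1, 197 lay wholly left of the cut and 103 wholly right.

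The same deletions recurred in many alleles. Of 568 distinct deletions, 302 were found in 2 or more alleles, and they accounted for 92.6% of events (91.7 to 93.5%). The 12 found in 50 or more alleles accounted for 39.6%, and the 266 found in 1 allele for 7.36%. Rare deletions tended to be longer, since the median over distinct deletions was 10 bases, against 4 bases over events. Every allele is a different combination of events, so the number of alleles counts different backgrounds, but alleles that share a joining deletion may share an ancestor and are not independent cuts.

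Counted from the cut, 8 forms were the commonest over all sites. Loss of the 3 bases right of the cut, which takes the target up to its last base, occurred 632 times (17.5%) at 9 of the 10 sites, 307 times at site 1 and 235 at site 10. Loss of the 2 bases right of the cut occurred 378 times, at all 10 sites, with 137 events at site 8 and 127 at site 7. The single base right of the cut was lost 193 times and the single base left of it 191 times, both at all 10 sites. Loss of 4 bases left and 2 right occurred 165 times, 119 of them at site 10. Loss of the 2 bases left of the cut also occurred 165 times, with 77 at site 10 and 55 at site 1. The remaining forms were tied to few sites. A 12-base loss that starts 2 bases right of the cut occurred 129 times, 127 of them at site 1. Loss of 7 bases left and 3 right occurred 108 times, 60 at site 1 and 47 at site 4.

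At site 1 the commonest deletion removed bases 23 to 25, directly right of the cut, in 307 alleles with 794 UMIs. The largest of these alleles had 41 UMIs, 182 had 1 UMI, and the 307 alleles carried 232 different sets of joining deletions. Loss of bases 24 to 35 was found in 127 alleles with 303 UMIs and 97 sets of joins. Loss of bases 16 to 25 was found in 60 alleles with 181 UMIs. These 3 deletions made up 54.8% of the site's small local deletions (51.5 to 58.1%).

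At site 10 the leading deletion removed bases 266 to 268 in 235 alleles with 633 UMIs and 190 sets of joins. By the window cagACna, loss of bases 265 to 267 would leave the same array, so it cannot be read as lying only to the right. Loss of bases 262 to 267 was found in 119 alleles with 375 UMIs, and loss of bases 264 to 265 in 77 alleles with 151 UMIs. Together the 3 made up 48.6% of the site's deletions (45.3 to 52.0%). The leading deletions of sites 1 and 10 had the same length and the same listed position beside the cut.

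Sites 7 and 8 were each dominated by 1 deletion of 2 bases. At site 7, bases 185 to 186 were lost in 127 of 204 deletions (62.3%), with 229 UMIs and 111 sets of joins. At site 8, bases 212 to 213 were lost in 137 of 244 (56.1%), also with 229 UMIs and with 82 sets of joins. The next at site 7 were loss of base 185 in 6 alleles then of bases 173 to 192 and of bases 179 to 186 in 5 each. At site 8 they were loss of bases 206 to 213 in 10 alleles, then 4 deletions in 6 alleles each, of bases 212 to 217, 209 to 211 and 209 to 212 and of base 211.

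Sites 2 and 9 had no dominant form. At site 2 the leading deletion, of bases 46 to 51, was found in 29 alleles with 81 UMIs (9.86% of the site's deletions). Loss of base 49 and loss of base 50, the bases on either side of the cut, followed with 25 alleles and 33 UMIs each. For both, the window natACgn allows only the listed placement, and the other single-base loss at this site, of base 48, was found in 3 alleles. At site 9, loss of bases 237 to 239 was found in 42 alleles with 85 UMIs and loss of base 238, left of the cut, in 42 alleles with 55 UMIs. Next came the 22-base loss of bases 233 to 254 in 30 alleles with 51 UMIs. The 3 leading deletions made up 26.9% at site 2 (21.9 to 32.3%) and 23.4% at site 9 (19.7 to 27.4%).

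The other inner sites had smaller numbers. At site 3, loss of bases 77 to 79 was found in 47 alleles with 102 UMIs (29.9%), then loss of base 77 in 17 alleles and of bases 77 to 80 in 13, and 75.2% of the site's deletions lay wholly right as listed. At site 4 the 10-base loss of bases 97 to 106 led with 47 alleles and 73 UMIs (25.3%), ahead of bases 104 to 106 in 18 alleles and 105 to 106 in 17. Site 5 had loss of bases 130 to 131 in 16 alleles, of bases 128 to 150 in 9 and of bases 131 to 132 in 8. Its window nncGCtn shows another placement for the first of these. At site 6, loss of bases 158 to 159 was found in 15 alleles, of bases 157 to 172 in 14 and of base 158 in 9.

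Compared with local deletions that carried added bases, of which there were 2909 at single sites, those without added bases were shorter. Without added bases the median loss was 4 bases, against 11 bases with them, and 48.1% lost 3 bases or fewer, against 18.7% (17.3 to 20.2%). Over 20 bases were lost in 8.13%, against 21.5% (20.04 to 23.1%). Added bases had a median number of 5. Clean loss made up 70.3% of all local deletions at site 10 (67.7 to 72.8%), 63.7% at site 1 (61.2 to 66.3%), 63.1% at site 4 and 61.5% at site 9. The share was lowest at site 6 with 29.5% (25.2 to 34.1%) and site 5 with 30.7% (26.4 to 35.4%). No test was made, since all events come from 1 library.

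By listed placement, the share of deletions that crossed the cut was lower without added bases at 5 sites (3, 5, 6, 7 and 8). It was higher at 3 sites (1, 9 and 10), in each case with intervals that did not overlap. At site 2 it was 41.8%, against 42.4% with added bases, and at site 4 it was 50%, against 59.6%, both with overlapping intervals. At site 7, 18.6% of deletions without added bases crossed the cut (13.5 to 24.7%), against 87.8% of those with added bases (83.1 to 91.6%). The stated bases do not decide the placement of 127 of its 204 deletions without added bases, the loss of bases 185 to 186. At site 8, 20.5% crossed the cut without added bases, against 68.9% with them (62.4 to 74.9%). There, 137 of 244 deletions, listed at bases 212 to 213, could equally be placed at bases 211 to 212, across the cut. The order at site 8 therefore depends on listed placement. Compared with site 7, the order was turned at site 9, with 61.5% crossing the cut without added bases (57.0 to 65.8%), against 37.0% with them (31.6 to 42.7%). At site 10, 24.5% lay wholly left without added bases (21.7 to 27.5%), against 57.6% with them (52.4 to 62.7%), all by listed placement. The loss of bases 249 to 265, wholly left of the cut, alone made up 124 of the 375 deletions with added bases there. With leftmost placement of the deletions without added bases, the shares were 52.9% crossing the cut at site 9 and 30.6% wholly left at site 10, both still outside the intervals of deletions with added bases, whose placement was not changed.

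Over all 568 distinct deletions, 194 (34.2%) were also listed with added bases at the same start and end. Of the 25 found in 25 or more alleles, 17 had such a counterpart and 8 did not, and this minimum was set after the values were seen. The 8 were the losses of bases 24 to 35 (127 alleles), 16 to 25 (60) and 18 to 36 (31) at site 1, 46 to 51 (29) at site 2, 97 to 106 (47) at site 4, 185 to 186 (127) at site 7, and 233 to 254 (30) and 222 to 243 (27) at site 9. Their lengths were 2 to 22 bases, and 7 of them removed 6 bases or more. By contrast, loss of bases 266 to 267 at site 10 was found in 32 alleles without and 32 with added bases, and loss of base 266 in 61 without and 41 with. An added base equal to its neighbour in the array would shift the listed start or end, so a missing counterpart says only that this start and end were not listed with added bases.

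Insertions outnumbered small local deletions at every site. The ratio ran from 1.48 insertions per deletion at site 5 to 6.15 at sites 2 and 10. Among alleles with site 10 outside a join, 12.5% had a small local deletion, against 77.0% with an insertion there. At site 7 the shares were 22.9% and 38.9%.

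Small local deletions were found in 3110 alleles (24.4%, 23.6 to 25.1%), which held 6273 UMIs (19.4% of UMIs). Of these alleles, 2678 carried 1 such deletion, 374 carried 2, 45 carried 3, 12 carried 4 and 1 carried 6. The pairs of sites most often altered this way in the same allele were sites 9 and 10 (73 alleles), sites 1 and 10 (65), sites 8 and 9 (63) and sites 1 and 2 (55). All 3110 alleles also held a deletion joining 2 or more sites, and 0 of 3110 consisted of small local deletions alone, which allows a share of up to 0.0965%. That limit covers counting error only. Every listed allele, with or without a small local deletion, had lost at least 49 bases net of insertions, more than the 47 that 1 small local deletion can remove. The share of the other alleles that held a join is not given here. Holding a join is therefore not shown to be particular to alleles with a small local deletion.

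Within an allele, the deletion usually stood next to a joining deletion but apart from it. A neighbouring site lay in a join for 66.3% of the deletions (64.8 to 67.9%), and the nearest other event was a median of 23 bases away (quartiles 15 and 25). Another event within 5 bases was present for 4.07%. A join needs 2 sites, so only deletions at sites 3 to 8 can lie between joins. This was the case for 87.1% of deletions at site 6, 83.8% at site 5, 73.1% at site 4 and 64.2% at site 7, against 14.6% at site 3 and 9.84% at site 8.

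Alleles with a small local deletion were compared with the rest for their other edits. The 2 groups were not matched for number of events. Its median was 4 with a small local deletion and 3 in the rest, of which 431 alleles had 1 event. An insertion was present in 65.7% (64.0 to 67.4%), against 75.6% of alleles without a small local deletion (74.7 to 76.4%). A join with added bases was present in 51.1% (49.3 to 52.8%), against 62.0% (61.0 to 63.0%), and a join without added bases in 67.5% (65.8 to 69.1%), against 62.9% (61.9 to 63.9%). Another event in the same window was present for 0 of 3615 small local deletions. A deletion with bases inserted at the same cut is listed as a deletion with added bases, which the rule leaves out. This count of 0 therefore follows at least in part from the listing and the rule. Alleles built entirely of deletions without added bases numbered 826, and 385 of them (46.6%) held a small local deletion, against 24.4% of all alleles. Restricting to alleles of this kind raises the share by construction, since small local deletions are themselves deletions without added bases. Those 385 made up 12.4% of the alleles with a small local deletion and 21.1% of their UMIs.

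The most abundant allele with a small local deletion had 54 UMIs and lacked bases 23 to 250 and 266 to 268. The second, with 47 UMIs, had the same join of bases 23 to 250 but lacked bases 262 to 267 at site 10. An allele with 41 UMIs lacked bases 23 to 25 and 46 to 267. Another, with 38 UMIs, combined 5 deletions without any added base. Of these, the losses of bases 18 to 36, 151 to 170 and 185 to 186 were small local deletions, and those of bases 50 to 131 and 212 to 267 were joins. The last of the 5 largest, with 28 UMIs, lacked bases 23 to 25 and bases 50 to 265 with GG inserted. All 5 contained at least 1 of the recurrent deletions named above. Deletions found in 2 or more alleles made up 92.6% of all small local deletions, so this is not shown to be particular to abundant alleles. The longest small local deletion in an allele with 3 or more UMIs removed the 37 bases 63 to 99 around site 3, in an allele of 8 UMIs.

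The same join occurred with different edits at the site left over, in alleles of exactly 2 events. The 5 joins with the most UMIs beside a small local deletion were taken, a choice made after values were seen. The join of bases 23 to 238, which leaves site 10, was paired with a small local deletion in 13 alleles with 88 UMIs, against 50 alleles with 704 UMIs for an insertion and 8 alleles with 19 UMIs for a deletion with added bases. The join of bases 23 to 250 was paired with a small local deletion in 8 alleles with 117 UMIs, against 33 alleles with 327 UMIs for an insertion, and that of bases 23 to 237 in 15 alleles with 62 UMIs, against 42 alleles with 350 UMIs. Site 1 is left by the join of bases 46 to 267, which was paired with a small local deletion in 3 alleles with 46 UMIs, against 15 alleles with 84 UMIs for an insertion. The join of bases 50 to 265 with an inserted G was paired with a small local deletion in 5 alleles with 39 UMIs, against 22 alleles with 210 UMIs for an insertion.

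UMIs per allele were compared at equal numbers of events, because all alleles with a small local deletion had 2 or more events. At 4 events, alleles with a small local deletion had a mean of 1.79 UMIs (n = 922 alleles) and the other alleles 1.43 (n = 1821), and 67.9% (64.8 to 70.9%) against 75.4% (73.4 to 77.4%) had 1 UMI. At 5 events the means were 1.55 (n = 473) and 1.24 (n = 776), with 74.0% (69.8 to 77.9%) against 82.2% (79.3 to 84.8%) at 1 UMI. At 2 events the shares with 1 UMI were 48.3% (42.9 to 53.7%) and 50.1% (48.1 to 52.0%), with overlapping intervals, and at 3 events 59.0% (55.9 to 62.0%) and 60.2% (58.6 to 61.8%). At 6 events the means were 1.39 (n = 241) and 1.37 (n = 337), with overlapping intervals of 79.7% (74.0 to 84.6%) and 82.8% (78.3 to 86.7%) at 1 UMI, and at 7 events the means were 1.29 in both (n = 70 and 78). The shares with 1 UMI thus lay apart only at 4 and 5 events among alleles of 2 to 7 events. Over all alleles with 2 or more events the means were 2.02 UMIs with and 2.15 without a small local deletion. Alleles are not replicates of a condition, so no test was made.

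The ends of these deletions were set beside those of deletions without added bases that join sites. At site 1, 50.7% of small local deletions started directly right of the cut (47.3 to 54.0%), against 63.9% of joins that began there (62.2 to 65.6%). At site 9 the start lay there in 14.8% (11.7 to 18.2%), against 62.1% of joins (55.6 to 68.4%). The share was also lower at sites 2, 4, 5 and 6, but at sites 3, 7 and 8 it was 70.7%, 75% and 64.8%, against 61.3%, 72.0% and 62.3% of joins, with overlapping intervals. At site 10, 22.9% of small local deletions ended directly left of the cut (20.2 to 25.8%), against 38.2% of the joins that ended there (36.4 to 40.0%). The last base of the target was the end for 30.8% of small local deletions at site 10 (27.8 to 34.0%), against 12.6% of joins (11.4 to 13.8%). The order was the same at site 3, with 32.5% against 15.1%, and at site 4, with 45.7% against 8.03%. It was turned at site 7, with 4.90% against 20.7%, and at site 8, with 4.92% against 18.1%, and at sites 2, 5, 6 and 9 the intervals overlapped. A small local deletion has both its ends at 1 site, whereas a join starts at 1 site and ends at another. The shares of ends lying directly at the cut are therefore not like for like. Listed placement among repeated bases applies to both kinds. Of the 273 small local deletions ending on the last target base at site 10, 235 were the loss of bases 266 to 268. Loss of bases 265 to 267 would leave the same array, so the order at site 10 depends on listed placement.

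At the edge of the rule, 440 of the 3615 deletions touched a single base of the window and 541 removed the whole window. Just outside it, 183 deletions without added bases touched no window, with a median length of 1 base, and 129 of them began within array bases 1 to 4. A further 1165 touched exactly 2 windows, with a median length of 29 bases (quartiles 27 and 38). Of these, 415 were of 27 bases or fewer, the step between sites. Among small local deletions, 27 were longer than 27 bases and the longest removed 46. The lengths of both kinds thus overlapped above 27 bases as well.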

How the data were processed

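Per the labels' protocols, liver RNA was copied to cDNA from a UMI-tagged primer for the array, and the array at Col1a1 was amplified by nested PCR. Per the submitters' processing notes the build was mm10. The labels name no allele caller, settings or filters. The authors deposited 2 lists without headers: the events of each allele, and its UMIs of 12 bases in the same order. They hold no counts or normalized values, so read depth is unknown and the 32342 UMIs set the precision. An allele's UMIs were counted from its line.

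The layout of 10 targets of 20 bases in units of 27 bases, with windows of 7 bases, comes from the rule and not from a deposited sequence. An event is joining when it touches 2 or more windows. Shares have exact binomial (Clopper-Pearson) 95% intervals, and medians were computed over events. A count of 0 was given the limit of 3 counts. Other placements of a deletion were found by shifting it over bases that the listed substitutions state, and a placement is undecided where a base is not stated.

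The rule for naming took all 10 sites, the 3 commonest deletions per site, the 8 commonest forms counted from the cut, the 5 alleles with the most UMIs and the longest deletion at 3 or more UMIs. Further deletions, joins and pairs were chosen after their values were seen. The members and lists were chosen with earlier results of these data known. Alternatives were UMI minimums, weights, windows, neighbouring events, events per allele, the largest allele and placement. On 2000 simulated alleles, with every array base known and short deletions at the cut, deletions, sides and equal placements were recovered in 100%. This checks the code only, since most array bases are not stated in this library. Python 3.11.15 and scipy 1.17.1 were used.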

Additional observations from a re-analysis of the deposited data

How the results depend on the processing

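Of 107 values for 11 main results under 11 settings, 49 stayed within the counting interval, or within 1.5 times a count, and 58 did not; for single sites these numbers were 280 and 140. Some values fixed by a setting's construction were not computed, but others are included. Counting each distinct deletion once gives the 568 distinct deletions by construction. UMI minimums can only lower the number of deletions, and UMI weights can only raise it. Minimums of 2, 3 and 5 UMIs per allele left 1273, 634 and 282 small local deletions, of 317, 195 and 111 distinct kinds. Their share of events was then 9.13%, 9.46% and 10.6%, of alleles 23.02%, 22.4% and 22.6%, and of UMIs 17.5%, 16.1% and 14.2%. Deletions of 1 base made up 9.82%, 8.99% and 5.67%, those across the cut 36.8%, 37.1% and 41.1%, those wholly left 13.5%, 12.3% and 8.16%, and recurrent ones 85.9%, 81.1% and 72.7%; the median length was 5 bases at 3 and at 5 UMIs. Weighting by UMIs gave 7357 deletions, 9.12% of 1 base, 37.3% across the cut, 12.6% wholly left and 93.9% recurrent. Counting each distinct deletion once gave 568, 6.69% of distinct events, a median of 10 bases, 5.81% of 1 base, 54.2% across the cut, 18.5% wholly left, 27.3% wholly right and 53.2% recurrent. With the whole target of 20 bases in place of the window, the share was 7.29% of events, 21.3% of alleles and 17.02% of UMIs, with a median of 3 bases, 13.7% of 1 base, 31.0% across the cut, 20.1% wholly left and 93.5% recurrent. Without deletions that had another event within 5 bases, the shares were 8.13% of events, 23.4% of alleles and 18.8% of UMIs, and without alleles of 6 or more events 23.1% of alleles and 18.6% of UMIs. The leftmost placement, added after the data were seen, gave 38.1% across the cut, 22.96% wholly left and 38.9% wholly right. The causes of these shifts were not tested. Leaving out the largest allele, or deletions away from the cut, moved none of the 11 main results outside its range.

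The number of UMIs limits what can be said of rare deletions, since 65.1% of the alleles with a small local deletion had 1 UMI. The sides of the cut rest on listed placement for the 74.8% of deletions that the stated bases do not decide. For a further 16.7% another placement is known to leave the same array, and only the listed placement is possible for 8.52%.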
